A study of Mus musculus with 8 samples.

Results

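The genes described here are 45 genes of the NRF2, glutathione and thioredoxin antioxidant system, taken from a list of symbols, and 42 of them had a usable measurement among the 19938 genes named by a single-gene transcript cluster on the array. Each gene is represented by its transcript cluster, the array's summary of all probes along a transcript, that carries exactly 1 gene symbol and has the highest mean over the 8 arrays. Prdx5, Prdx6 and G6pdx had no such cluster and were not analysed here. Levels come from the corpus callosum, a white matter tract rich in myelin, of male wild-type C57BL/6 mice aged 8 weeks. The copper chelator cuprizone was given at 0.25% for 1 week to the mice behind 4 samples and normal diet to those behind 4 others, and each sample, labelled a biological replicate, gave 1 Affymetrix Mouse Gene 1.0 ST array. The labels do not state whether a sample is 1 mouse or a pool, and 1 week is a single early time point of this demyelination model. All levels are log2 values after RMA, so a difference of 1 is a 2-fold difference, and levels of different genes are not compared because their probes differ. Every difference is cuprizone minus control with its standard error, and every adjusted p is from limma with Benjamini-Hochberg adjustment over the 23410 clusters with a gene symbol, at a threshold of 0.05.

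The transcription factor NRF2, encoded by Nfe2l2, is held in the cytoplasm and marked for degradation by KEAP1. Oxidants and electrophiles modify KEAP1, NRF2 then enters the nucleus, pairs with small MAF proteins and binds antioxidant response elements near genes of glutathione synthesis, thioredoxin reduction, NADPH supply and detoxification. Oligodendrocytes are known for a high iron content and a heavy lipid synthesis load, while astrocytes carry much of the NRF2 and glutathione capacity of the brain. Because control of NRF2 is largely at the protein level, the mRNA levels below do not measure its activity.

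The promoters are shown first, since the genes of this system are known for a shared element. RefSeq promoters on GRCm38.p6, from 250 bases before to 50 bases after a transcript start, were held for 36 of the 42 genes. They were searched on both strands for TGACNNNGC, the core of the antioxidant response element, and for TGACTCA, the AP-1 element, which overlaps the first where it is followed by GC. The first motif was found for 10 of the 36 genes (27.8%), against 14.0% of all 27025 genes with a promoter, and the second for 5 (13.9%), against 5.95%. The 60-base stretches below hold the match in capitals, read 5′ to 3′ along each gene's own strand, and were chosen to show it in genes that rose (Nfe2l2, Mgst1), fell (Gstm5, Gstm7) and did not pass the test (Gclm, Txnrd1, Prdx1).
Nfe2l2 (chr2:75704854-75704913, minus strand): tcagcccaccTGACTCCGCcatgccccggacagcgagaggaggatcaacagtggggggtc
Mgst1 (chr6:138140446-138140505, plus strand): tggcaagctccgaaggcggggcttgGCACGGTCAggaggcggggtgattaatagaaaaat
Gstm5 (chr3:107895787-107895846, plus strand): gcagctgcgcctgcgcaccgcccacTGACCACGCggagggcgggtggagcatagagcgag
Gstm7 (chr3:107931709-107931768, minus strand): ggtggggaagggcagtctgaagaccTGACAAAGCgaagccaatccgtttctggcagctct
Gclm (chr3:122245398-122245457, plus strand): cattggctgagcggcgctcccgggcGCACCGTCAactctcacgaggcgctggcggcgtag
Txnrd1 (chr10:82859089-82859148, plus strand): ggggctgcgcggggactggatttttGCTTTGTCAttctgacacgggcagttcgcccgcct
Prdx1 (chr4:116685441-116685500, plus strand): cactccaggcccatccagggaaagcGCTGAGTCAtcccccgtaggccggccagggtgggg
The match lies on the gene's own strand in Nfe2l2, Gstm5 and Gstm7 and on the opposite strand in the other 4. It begins 240 bases before the start in Nfe2l2, 56 in Mgst1, 42 in Gstm5, 129 in Gstm7, 134 in Gclm, 92 in Txnrd1 and 133 in Prdx1. The promoter of Srxn1 also held both motifs, with the core 28 bases after the start. In Prdx1 the capitals also hold the AP-1 element. The core was thus present in 2 of 5 genes that rose, in 2 of 4 that fell and in 6 of 27 that did not pass the test and had a promoter. The AP-1 element was present in 0, 2 and 3 of these genes. Ephx1, Gpx8 and Prdx4, which rose, had neither motif in this window, which covers only a short part of their regulatory sequence.

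After 1 week of cuprizone, Nfe2l2 itself, the epoxide hydrolase Ephx1, the microsomal transferase Mgst1 and the peroxidase Gpx8 were 1.60-fold to 2.56-fold higher, and the mu-class transferases Gstm7 and Gstm5 were 2.06-fold and 1.66-fold lower. Smaller differences passed the test for Prdx4, which was higher, and for Gstp1 and Taldo1, which were lower. Nqo1, Gclc, Gclm, Srxn1 and Txnrd1, 5 of the known targets of NRF2 among the 42 genes, did not pass it. They are not all of its targets there, and the genes that passed were not sorted into targets and others. Of the 42 genes 5 were higher and 4 lower, which is 21.4%, where 8.22% of all 23410 clusters passed in either direction (4.71% higher and 3.52% lower). The median difference of the 42 genes was 0.02, against -0.01 over all clusters. At least 1.5-fold changes past the threshold were found for 4 higher and 2 lower genes, where such changes made up 2.31% of all clusters. The groups did not overlap for 12 of the 42 genes, where 15.3% of all clusters showed this.

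**Figure D1:**
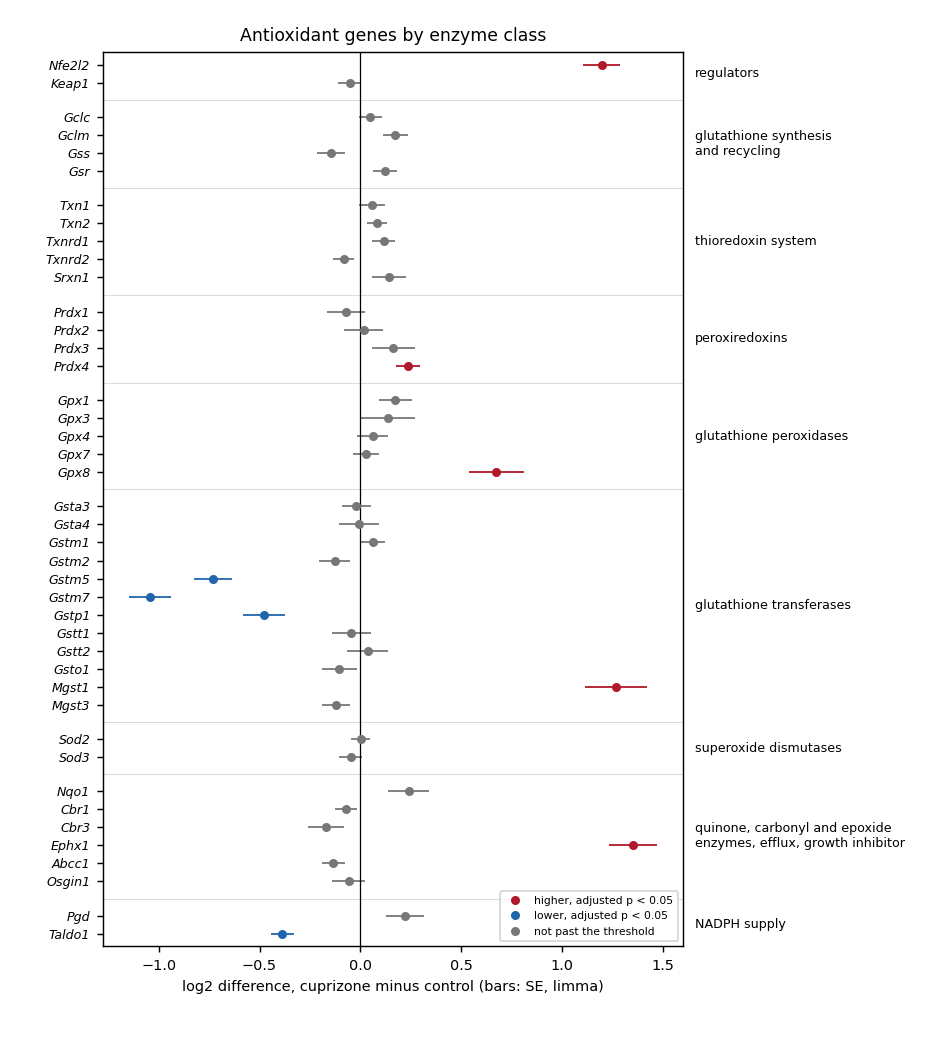
Log2 difference between cuprizone and control arrays (horizontal axis, points with SE from limma) for the 42 measured genes, grouped by enzyme class. Red points are the 5 genes higher and blue points the 4 genes lower at an adjusted p under 0.05, and grey points, between -0.17 and 0.24, did not pass.

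The arrays were alike in their overall level, with medians of 7.44 to 7.49, and pairs of arrays within a group had correlations of 0.995 to 0.997 over the clusters tested. On the first principal component, which held 52.2% of the variance, the lowest cuprizone score was 8.73 (replicate 2), below 16.5 to 22.5 in the remaining 3, and the control score nearest to 0 was -13.2 (also replicate 2), with -18.6 to -18.1 in the remaining 3. Cuprizone replicate 3 was the highest cuprizone array for 30 of the 42 genes, and its median deviation from the control mean over them was 0.11, against -0.03 to 0.02 on the other cuprizone arrays. Its median level over all clusters tested was also the highest, at 7.49, against 7.45 to 7.47 on the other cuprizone arrays. The count of highest values was not made over all clusters. The mean of 10 mature oligodendrocyte markers was 8.22 to 9.11 with cuprizone and 10.9 to 11.2 in controls, and all 10 were lower past the threshold, while 1 of 5 progenitor markers was lower. Of 9 microglial markers 7 were higher, with list means of 8.60 to 8.92 with cuprizone and 8.08 to 8.23 in controls. Of 9 astrocyte markers 5 were higher and 2 lower, with means of 10.6 to 10.7 with cuprizone and 10.3 to 10.5 in controls. None of the 8 neuronal, 8 endothelial and mural, 8 choroid plexus and ependymal, 6 meningeal and 4 blood leukocyte markers passed limma's threshold, with 1, 3, 2, 1 and 0 of them at an unadjusted p under 0.05. The mean of the choroid plexus and ependymal markers followed the replicate number in both groups, high on numbers 2 and 4 of each. It was 7.30, 8.23, 7.32 and 8.03 on cuprizone arrays 1 to 4 and 7.51, 8.24, 7.28 and 8.53 on control arrays 1 to 4. Foxj1 and Ccdc153 of this list were instead highest on number 3 with cuprizone. Foxj1 had 7.69, 7.82, 8.01 and 7.80 and Ccdc153 had 7.29, 7.25, 7.36 and 7.24 on cuprizone arrays 1 to 4. In such tissue samples fewer cells of a type and less RNA per cell cannot be told apart.

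**Figure D2:**
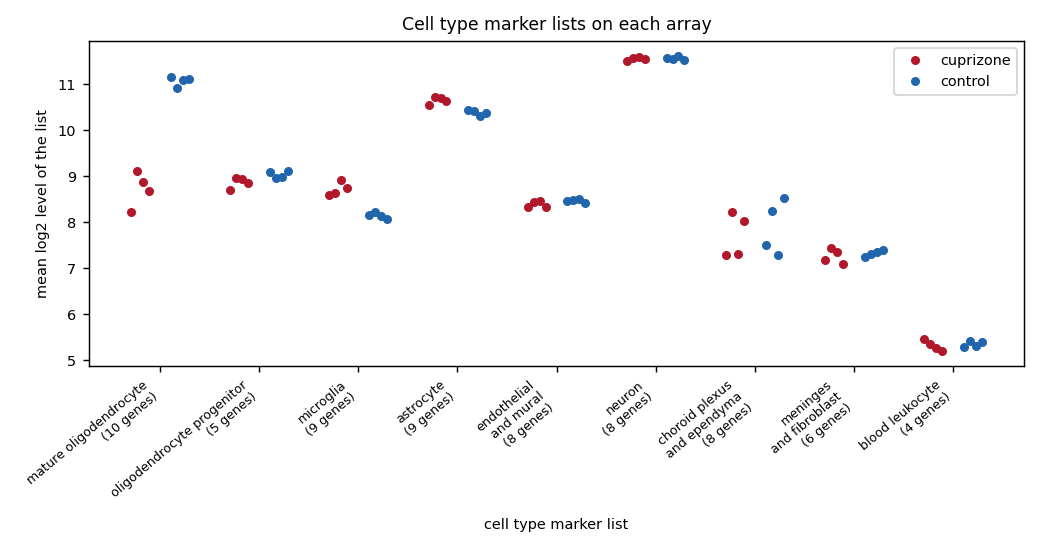
Mean log2 level of each list of cell type markers (vertical axis) on the 4 cuprizone arrays (red) and the 4 control arrays (blue), 1 point per array. The oligodendrocyte points lie at 8.22 to 9.11 with cuprizone and 10.9 to 11.2 in controls, and the microglial points at 8.60 to 8.92 with cuprizone and 8.08 to 8.23 in controls.

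Of the regulators, Nfe2l2 (transcript cluster 10483809) had log2 levels of 10.12, 9.90, 10.23 and 10.17 on cuprizone arrays 1 to 4, against 8.82, 9.14, 8.82 and 8.84 on control arrays 1 to 4. Every cuprizone array lay above every control, and control replicate 2 stood apart from the other controls, which lay within 8.82 to 8.84. The means were 10.11 ± 0.15 with cuprizone and 8.91 ± 0.16 in controls (SD, n = 4 each), a difference of 1.20 ± 0.09, or 2.30-fold (adjusted p = 2.13e-05). Keap1 (cluster 10591482), which encodes the repressor of NRF2, had 8.08, 8.00, 8.09 and 8.05 with cuprizone and 8.18, 8.11, 8.13 and 8.02 in controls. These ranges overlapped, and the difference was -0.05 ± 0.05 (adjusted p = 0.667), with a 95% interval of -0.17 to 0.07. The response of Nfe2l2 exceeded that of Keap1 by 1.25, with no overlap between the groups in the difference of the 2 genes within an array. The exact permutation test of this difference over arrays, two-sided, gave p = 0.0286, the smallest that 4 against 4 arrays allow, and 0.0686 after adjustment over the 24 pairs within gene families that were compared this way.

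None of the 4 genes of glutathione synthesis and recycling passed the limma threshold, and 1 had an unadjusted p under 0.05. Gclc, the catalytic subunit of the rate-limiting glutamate-cysteine ligase, had 9.83, 9.88, 9.94 and 9.88 with cuprizone and 9.89, 9.87, 9.85 and 9.73 in controls. Gclm, its modifier subunit, had 10.01, 10.04, 10.22 and 10.18 with cuprizone and 9.94, 9.96, 9.89 and 9.96 in controls. The Gclc ranges overlapped, whereas all 4 cuprizone arrays lay above all controls for Gclm, by little. The difference was 0.05 ± 0.06 for Gclc (adjusted p = 0.711, 95% interval -0.08 to 0.17) and 0.17 ± 0.06 for Gclm (adjusted p = 0.127, 95% interval 0.04 to 0.31). Glutathione synthetase, Gss, differed by -0.15 ± 0.07 and glutathione reductase, Gsr, which restores reduced glutathione with NADPH, by 0.12 ± 0.06, with adjusted p of 0.256 and 0.284.

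The thioredoxin system, which reduces protein disulfides and peroxiredoxins, had 0 of 5 genes past the limma threshold and 0 at an unadjusted p under 0.05. Txnrd1, the cytosolic thioredoxin reductase and a classic NRF2 target, had 8.42, 8.35, 8.51 and 8.47 with cuprizone and 8.35, 8.36, 8.24 and 8.33 in controls. Srxn1, sulfiredoxin, which repairs overoxidised peroxiredoxins, had 8.81, 8.87, 9.11 and 8.72 with cuprizone and 8.73, 8.74, 8.83 and 8.62 in controls. For both genes the groups overlapped, with 3 cuprizone arrays above every control for Txnrd1 and replicates 2 and 3 for Srxn1. The differences were 0.12 ± 0.06 for Txnrd1 (adjusted p = 0.275) and 0.14 ± 0.08 for Srxn1 (adjusted p = 0.391). Cytosolic thioredoxin, Txn1, differed by 0.06 ± 0.07, and mitochondrial thioredoxin, Txn2, and its reductase, Txnrd2, by 0.08 ± 0.05 and -0.08 ± 0.05. For Txn2 all cuprizone arrays again lay above all controls, with an adjusted p of 0.405.

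Among the peroxiredoxins, which reduce hydrogen peroxide through a reactive cysteine, 1 of 4 measured genes rose. Prdx4 (cluster 10607475), the peroxiredoxin of the endoplasmic reticulum, had 6.32, 6.50, 6.47 and 6.46 with cuprizone and 6.22, 6.28, 6.15 and 6.16 in controls. The groups did not overlap, but cuprizone replicate 1 lay within 0.04 of control replicate 2. The difference was 0.24 ± 0.06, or 1.18-fold (adjusted p = 0.0325), and the adjusted p was 0.0676 to 0.0907 when any 1 array other than control replicate 2 or cuprizone replicate 1 was left out. Cytosolic Prdx1 differed by -0.07 ± 0.09 and Prdx2 by 0.02 ± 0.10, and mitochondrial Prdx3 by 0.16 ± 0.11, none past the threshold (adjusted p 0.438 to 0.948). Prdx1 and Prdx2 each had a second single-gene cluster, at -0.064 ± 0.09 and -0.0088 ± 0.10, which did not pass either. The response of Prdx4 exceeded that of Prdx1 by 0.31 and that of Prdx3 by 0.07, with exact permutation p of 0.0571 and 0.629.

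Of the 5 genes of the glutathione peroxidase family, whose proteins reduce peroxides with glutathione or other thiols, Gpx8 alone passed. Gpx8 (cluster 10412207), a membrane-bound peroxidase of the endoplasmic reticulum, had 8.18, 8.14, 8.76 and 8.46 with cuprizone and 7.61, 7.81, 7.51 and 7.91 in controls. Every cuprizone array lay above every control, by the widest margin in replicate 3, and the controls themselves spread over 0.41. The means were 8.39 ± 0.29 with cuprizone and 7.71 ± 0.18 in controls (SD, n = 4 each), a difference of 0.68 ± 0.14, or 1.60-fold (adjusted p = 0.0104). Gpx7, its closest relative and also of the endoplasmic reticulum, differed by 0.03 ± 0.07 (adjusted p = 0.871). The response of Gpx8 exceeded that of Gpx7 by 0.65 and that of Gpx4 by 0.61, with no overlap between the groups (exact permutation p = 0.0286 each, 0.0686 adjusted over the 24 pairs). It exceeded that of Gpx1 by 0.50 and that of Gpx3 by 0.54, with overlapping groups (exact permutation p = 0.0571 each, 0.0856 adjusted). Cytosolic Gpx1 differed by 0.17 ± 0.08, secreted Gpx3 by 0.14 ± 0.13 and Gpx4, which reduces lipid peroxides in membranes and protects from ferroptosis, by 0.06 ± 0.08 (adjusted p 0.259, 0.641 and 0.740). A second cluster of Gpx4 differed by 0.066 ± 0.09.

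**Figure D3:**
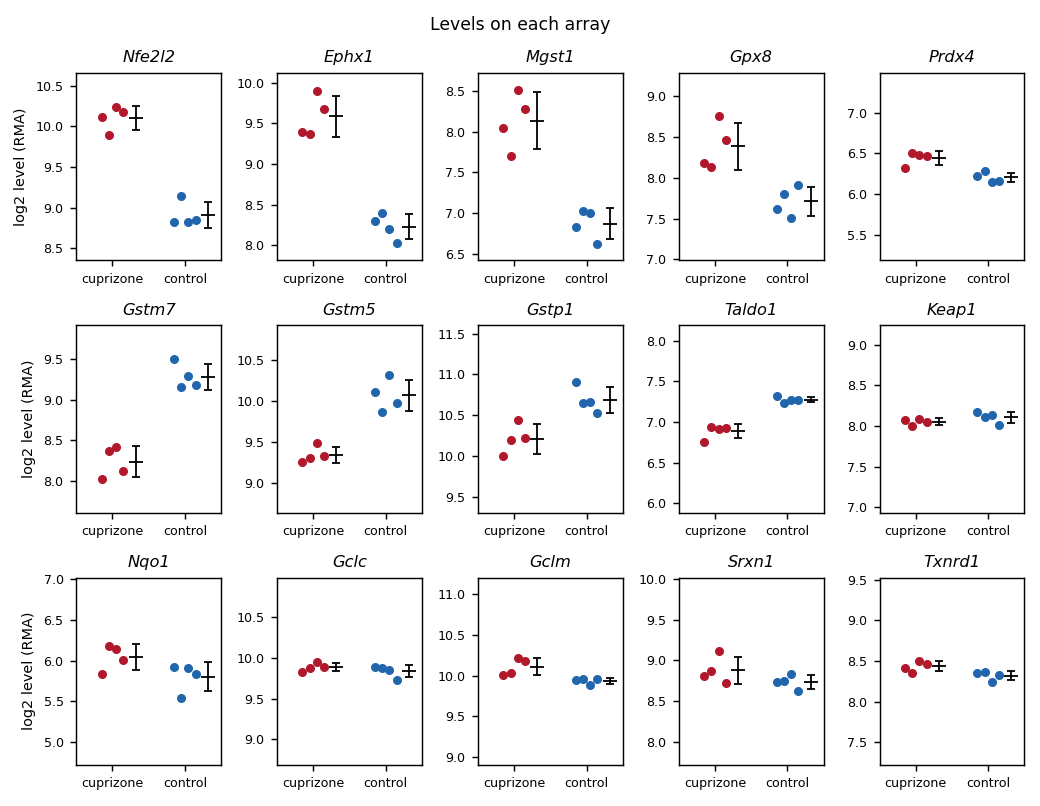
Log2 levels of 15 genes (vertical axes, each spanning 2.3) on the 4 cuprizone arrays (red, left) and the 4 control arrays (blue, right), with the mean and SD of each group in black. The first 9 panels are the genes past the threshold, whose groups do not overlap. The last 6 are Keap1 and 5 of the known targets of NRF2, and of these 6 Gclm alone has groups that do not overlap.

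Glutathione transferases, which join glutathione to electrophiles, held changes in both directions, with 1 of 12 higher and 3 lower and a median difference of -0.07. Mgst1 (cluster 10542470), a membrane enzyme of the endoplasmic reticulum and outer mitochondrial membrane with transferase and peroxidase activity, had 8.05, 7.71, 8.52 and 8.29 with cuprizone and 6.83, 7.02, 7.01 and 6.62 in controls. All cuprizone arrays lay well above all controls, with replicate 2 the lowest of them and replicate 3 the highest. The difference was 1.27 ± 0.15, or 2.41-fold (adjusted p = 0.000430). Its relative Mgst3 differed by -0.12 ± 0.07 (adjusted p = 0.388). The response of Mgst1 exceeded that of Mgst3 by 1.39, with no overlap between the groups (exact permutation p = 0.0286, 0.0686 adjusted over the 24 pairs).

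Gstm7 (cluster 10501199), a cytosolic mu-class transferase, had 8.03, 8.37, 8.42 and 8.13 with cuprizone and 9.50, 9.15, 9.29 and 9.19 in controls. Gstm5 (cluster 10495243), of the same class, had 9.25, 9.30, 9.48 and 9.32 with cuprizone and 10.11, 9.87, 10.32 and 9.98 in controls. For both genes every cuprizone array lay below every control. Gstm7 fell by 2.06-fold, a difference of -1.04 ± 0.10 (adjusted p = 0.000105), and Gstm5 by 1.66-fold, -0.73 ± 0.09 (adjusted p = 0.000596). Gstm1, an abundant brain transferase, differed by 0.06 ± 0.06 and Gstm2 by -0.13 ± 0.08 (adjusted p 0.637 and 0.409). In the exact permutation test Gstm1 and Gstm2 differed in response from Gstm5 and from Gstm7 at p = 0.0286 in all 4 pairs (0.0686 adjusted over the 24 pairs), by 0.60 to 1.11. Gstm1 differed from Gstm2 at the same p by only 0.19, and Gstm5 from Gstm7 by 0.31 at an exact permutation p of 0.0571. In the RefSeq gene table the 7 mu-class genes lie on chromosome 3 in the order Gstm5, Gstm7, Gstm6, Gstm3, Gstm2, Gstm1, Gstm4. The pair that fell thus stand at an end of this order, and other genes between the 7 were not looked for. Gstm6 and Gstm4 differed by -0.17 ± 0.12 and 0.05 ± 0.10, and Gstm3 by -0.02 ± 0.05 and -0.10 ± 0.10 in its 2 clusters, none past the threshold. The mu-class transcripts are similar in sequence, and the array's probes could share signal between them.

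Gstp1 (cluster 10464583), the pi-class transferase used as an antibody marker of oligodendrocytes, had 9.99, 10.19, 10.44 and 10.22 with cuprizone and 10.91, 10.65, 10.67 and 10.53 in controls. The groups did not overlap, and cuprizone replicate 3 came within 0.08 of control replicate 4. The fall was 1.39-fold, a difference of -0.48 ± 0.10 (adjusted p = 0.0144), and the adjusted p was 0.0601 without both arrays numbered 2. Gstp1 also lies on 2 clusters shared with its near copy Gstp2, which were not used, so its own cluster may carry signal of both. Mature oligodendrocyte markers fell on the same arrays, by 1.28 (Mbp) to 3.78 (Mog) on the log2 scale, and their part in the lower transferase levels was not tested. The alpha-class Gsta3 and Gsta4, theta-class Gstt1 and Gstt2 and omega-class Gsto1 differed by -0.10 to 0.04, with adjusted p of 0.580 to 0.978.

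**Figure D4:**
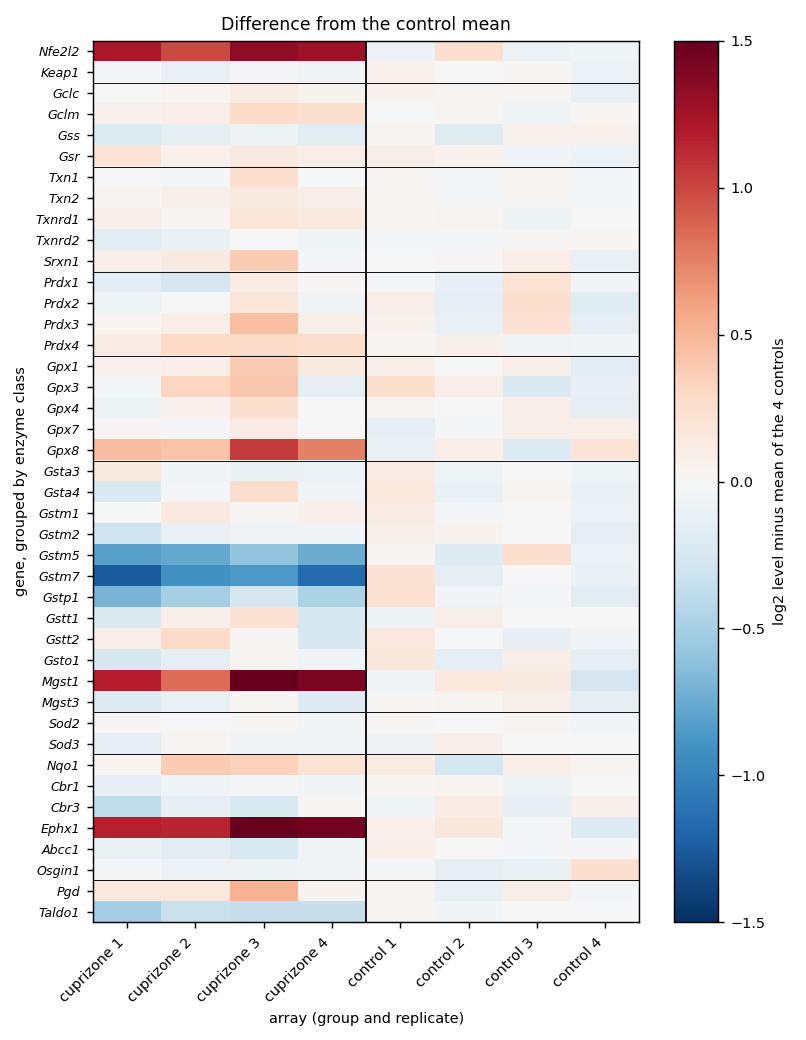
Log2 level of each of the 42 genes (rows, in the order of the enzyme classes, with lines between classes) minus the mean of the 4 controls, on the cuprizone arrays (left of the black line) and control arrays (right), in red where higher and blue where lower, with colours ending at 1.5 in either direction. Nfe2l2, Mgst1, Ephx1 and Gpx8 are red and Gstm5, Gstm7 and Taldo1 blue on all 4 cuprizone arrays, and Gstp1 is blue there too but pale on replicate 3, at -0.25.

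The superoxide dismutases did not pass. Mitochondrial manganese Sod2 differed by 0.00 ± 0.05, with a 95% interval of -0.11 to 0.11, and extracellular copper and zinc Sod3 by -0.05 ± 0.06 (adjusted p 0.990 and 0.724). Cytosolic Sod1, a copper enzyme of interest because cuprizone binds copper, had 11.22, 11.35, 11.26 and 11.31 with cuprizone and 11.38, 11.31, 11.05 and 11.24 in controls. These groups overlapped, with a difference of 0.04 ± 0.07 (adjusted p = 0.846, 95% interval -0.12 to 0.20).

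Of 6 genes for quinone, carbonyl and epoxide enzymes, efflux and growth inhibition, 1 rose. Ephx1 (cluster 10360684), the microsomal epoxide hydrolase, had 9.40, 9.37, 9.90 and 9.67 with cuprizone and 8.29, 8.40, 8.20 and 8.04 in controls. The groups were separated by 0.97, and replicates 3 and 4 were the highest cuprizone arrays, as they were for Mgst1 and Gpx8. The means were 9.58 ± 0.25 with cuprizone and 8.23 ± 0.15 in controls (SD, n = 4 each), a difference of 1.35 ± 0.12, or 2.56-fold (adjusted p = 4.83e-05), which was the largest among the 42 genes. Nqo1 (cluster 10581538), the quinone reductase most used as a readout of NRF2, had 5.83, 6.19, 6.15 and 6.02 with cuprizone and 5.93, 5.54, 5.91 and 5.84 in controls. Its groups overlapped, with a difference of 0.24 ± 0.10 (adjusted p = 0.201, 95% interval 0.02 to 0.46). The mean level of Nqo1 stood at the 24.1 percentile of the clusters tested, a rank that also depends on its probes. Prdx4, which passed, stood at the 30.5 percentile, and the part of signal level in either result was not tested. The carbonyl reductases Cbr1 and Cbr3 differed by -0.07 ± 0.05 and -0.17 ± 0.09, the efflux pump gene Abcc1 by -0.13 ± 0.06 and the growth inhibitor Osgin1 by -0.06 ± 0.08 (adjusted p 0.210 to 0.776). All cuprizone arrays lay below all controls for Abcc1, which did not pass.

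In the class named NADPH supply, Taldo1 (cluster 10558903), the transaldolase of the pentose phosphate pathway, had 6.76, 6.94, 6.91 and 6.93 with cuprizone and 7.32, 7.24, 7.28 and 7.27 in controls. The controls lay within 0.08 of each other and above every cuprizone array. The fall was 1.31-fold, a difference of -0.39 ± 0.06 (adjusted p = 0.00162). Pgd, phosphogluconate dehydrogenase, which unlike Taldo1 makes NADPH in this pathway, differed by 0.22 ± 0.10 (adjusted p = 0.215), with cuprizone replicate 3 the highest array. Taldo1 fell on the arrays where oligodendrocyte markers fell, and the part of those cells was not tested.

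The rest of the pathway was taken from a list of 56 further genes, of which 54 were measured. Of these 14 were higher and 1 lower, 27.8% in all against 8.22% of all clusters, with a median difference of 0.06. Of 10 genes of NRF2 regulation and its partners 5 rose, among them Mafk (0.50 ± 0.06, adjusted p = 0.000260) and Maff (0.49 ± 0.09), small MAF partners, Bach1 (0.33 ± 0.05), a repressor that competes with NRF2 for the element, and Sesn2 (0.98 ± 0.11), a stress-induced sestrin. Maff and Bach1 were named after their values were seen, as partners of NRF2. Their paralogs on the same list, Mafg (0.14 ± 0.05) and Bach2 (0.08 ± 0.06), did not pass, with adjusted p of 0.160 and 0.483. Of 12 other genes known as NRF2 targets 6 rose and 1 fell. Hmox1 (cluster 10572897), the haem oxygenase, had 8.87, 8.41, 9.54 and 8.85 with cuprizone and 6.58, 7.76, 6.74 and 7.13 in controls. The groups did not overlap, but controls spread over 1.18, with replicate 2 highest, as it was for Nfe2l2. The difference was 1.86 ± 0.27 (adjusted p = 0.00122). Slc7a11, the cystine transporter that feeds glutathione synthesis, rose by 1.30 ± 0.13 (adjusted p = 9.86e-05). Slc3a2, its partner chain, which is on the list of glutathione handling, rose by 0.82 ± 0.11 (adjusted p = 0.000620). Both are also known targets of ATF4. Idh1, the cytosolic isocitrate dehydrogenase that makes NADPH, fell by 0.52 ± 0.11 (adjusted p = 0.0133, and 0.0905 without moderation of the variance). Me1, the cytosolic malic enzyme, which also makes NADPH, rose by 0.30 ± 0.06 (adjusted p = 0.00782). The remaining genes that rose on the list of 12 NRF2 targets were the aldo-keto reductase gene Akr1b8 (0.37 ± 0.09), the ferritin light chain gene Ftl1 (0.34 ± 0.08) and the efflux pump gene Abcc4 (0.29 ± 0.07), with adjusted p of 0.0221, 0.0268 and 0.0344. Me1, Akr1b8, Ftl1 and Abcc4 were named after their values were seen, to complete the genes that rose on this list. The 5 genes of the list that did not pass differed by -0.23 (Tkt, adjusted p = 0.0723) to 0.16 (Nqo2). Among these 5 was the ferritin heavy chain gene Fth1, at -0.13 ± 0.07 (adjusted p = 0.329). Ftl1 also lies on 4 clusters with several symbols, which were not used.

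Of 11 further genes of glutathione handling 2 rose, among them Slc3a2 above. Of 7 further transferases 0 passed limma's threshold, with 1 at an unadjusted p under 0.05, and of 14 other redox enzymes 1 rose. The last was Txnip, the thioredoxin-binding arrestin and inhibitor, at 0.94 ± 0.12 (adjusted p = 0.000768), whose binding partner Txn1 differed by 0.06 ± 0.07. Of the markers, 7 of 9 microglial and 5 of 9 astrocyte ones rose on these arrays too, and their part in the higher levels was not tested.

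**Figure D5:**
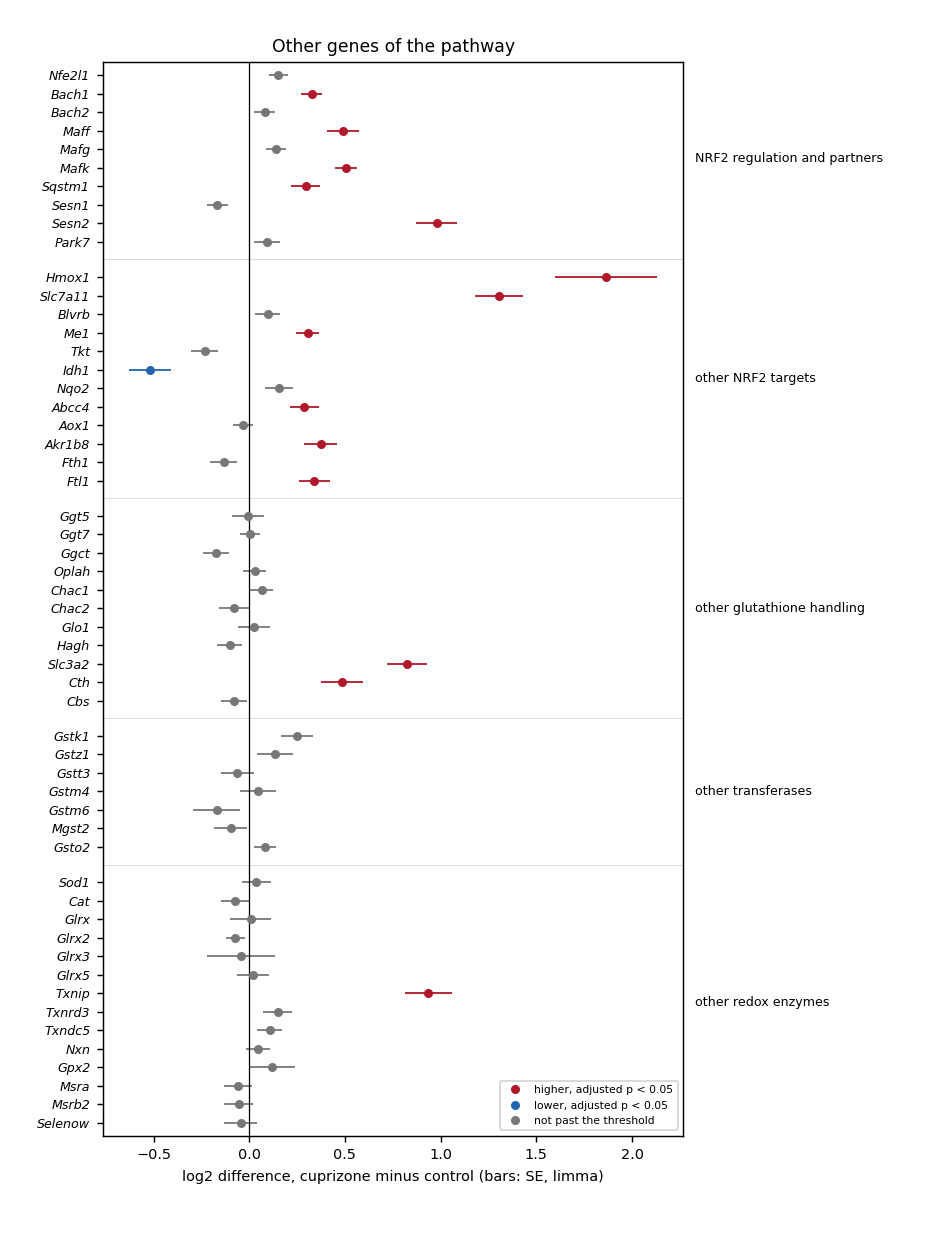
Log2 difference between cuprizone and control arrays (horizontal axis, points with SE from limma) for 54 further genes of the pathway in 5 lists. Red points are the 14 genes higher and the blue point the 1 gene lower, Idh1, at an adjusted p under 0.05, and Hmox1 lies furthest to the right at 1.86.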

How the data were processed

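Total RNA of 4 cuprizone and 4 control corpus callosum samples, 150 ng each, was amplified, labelled with biotin and hybridised to Mouse Gene 1.0 ST arrays, per the labels' protocols. The values deposited by the authors are log2 levels of 28944 transcript clusters on 8 arrays, between 2.21 and 14.1. RMA, Affymetrix Expression Console and Transcriptome Analysis Console are named in the submitters' processing notes, without version or role. RMA brings arrays to nearly the same distribution, so that a change common to most transcripts is removed. Without scanner files or scan dates, batch effects could not be examined and detection above background was not available for single clusters. The number of arrays limits the precision.

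Clusters were named from the platform annotation: 21789 had 1 symbol, 1621 several and 5534 none. Symbols were set against the RefSeq gene table by Entrez identifier, and 0 changed. The 23410 clusters with a symbol entered limma 3.58.1 (R 4.3.3), where lmFit and eBayes with defaults gave a two-sided test of the group difference without filter or covariate, and the code was tested on simulated data. All 42 measured genes are reported, with values on every array for those past the threshold and for the regulators, Nqo1, Gclc, Gclm, Srxn1, Txnrd1, Hmox1 and Sod1. Of the further pathway genes, up to 6 with the smallest p in each direction were to be named. Pairs within the Nfe2l2 and Keap1, Gstm, Mgst, Gpx and Prdx sets were compared by exact permutation of the group labels, two-sided, with 70 possible assignments. The genes, lists and alternatives were chosen with earlier results of these data known. Deviations of samples with the same replicate number correlated at over 0.1 for number 3 alone, so the numbers were not taken to pair samples. The mean of the choroid plexus and ependymal markers followed them nonetheless.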

Additional observations from a re-analysis of the deposited data

Results flagged for a closer look

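In 104 groups of 4 arrays, 4 held an array far from the other 3 by Dixon's test at its 95% critical value, where chance gives about 1 in 20, or 5.2. Control replicate 2 gave 9.14 for Nfe2l2 and its fellow controls 8.82 to 8.84, so that control was the nearest to the cuprizone arrays. The same array gave 7.57 for Gss, below the 7.80 to 7.82 of its fellow controls. Txn1 stood at 12.47 on cuprizone replicate 3, against 12.23 to 12.24 on the other cuprizone arrays. Control replicate 4 gave 11.02 for Sod2, close below the 11.07 of its fellow controls.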

How the results depend on the processing

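Nfe2l2, Ephx1, Mgst1, Gstm5, Gstm7 and Taldo1 kept their direction and passed in every alternative that tested them, with adjusted p of 2.01e-06 to 0.0248. Prdx4 passed in 7 of 17 alternatives (adjusted p 0.0192 to 0.0938), Gpx8 in 17 of 18 and Gstp1 in 16 of 18, and the 3 kept their direction. Without moderation of the variance 3 of the 42 genes were higher (adjusted p 0.0889 for Gpx8 and 0.0906 for Gstp1) and 632 of all clusters were higher, and 0 of the further pathway genes were lower, Idh1 at an adjusted p of 0.0905. Of those further genes 2 were lower with a trend and robust prior, with quantile normalization again and with median centring, 3 among the brighter clusters, and 1 to 2 when 1 array was left out. Only 31 of the 42 genes were bright enough for the filter on dim clusters.

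With the replicate number as a block 4 of the 42 genes rose and 4 fell, Prdx4 had an adjusted p of 0.0701, and 0 of the further genes were lower, Idh1 at 0.0540. Deviations of samples with the same number correlated at -0.19, -0.02, 0.21 and -0.06, and not every sample correlated best with its own number.

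When 1 array was left out, 10 genes near 0 changed sign without passing: Txn1 (-0.0029 to 0.080), Prdx2 (-0.042 to 0.097), Gpx7 (-0.017 to 0.058), Gsta3 (-0.076 to 0.022), Gsta4 (-0.099 to 0.065), Gstt1 (-0.13 to 0.024), Gstt2 (-0.046 to 0.13), Sod2 (-0.011 to 0.014), Osgin1 (-0.10 to 0.029) and Sod1 (-0.027 to 0.082). Without both arrays numbered 2, Prdx2 stood at -0.029 and Gstt2 at -0.043. With median centring Prdx2 stood at -0.0040 and Sod2 at -0.020. Without that centring the second cluster of Prdx2 stood at -0.0088. The median over the 42 genes was -0.0019 without cuprizone replicate 3, up to 0.046 without any other single array, and -0.012 without both arrays numbered 2. The cause of these shifts was not tested.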

Other observations

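Of the 42 genes, 6 encode proteins known to sit in the endoplasmic reticulum or its membrane (Gpx7, Gpx8, Prdx4, Mgst1, Mgst3 and Ephx1). Of these 4 rose and 0 fell in limma, with Gpx7 and Mgst3 past no threshold and a median difference of 0.46. Of all 23410 clusters 4.71% were higher and 3.52% lower. Among the other 36 genes 1 rose, Nfe2l2, and 4 fell, with a median of -0.0030. The grouping was made after the values were seen and has no test, so the contrast with the other 36 genes can come from that choice. Prdx4 differed by 0.22 to 0.24 but no longer passed when any of 6 single arrays was left out.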
